A study of Mus musculus with 6 samples.

Results

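The basement membrane and network-forming collagens are the 10 genes Col4a1 to Col4a6 (type IV), Col8a1 and Col8a2 (type VIII), Col15a1 (type XV) and Col18a1 (type XVIII). They were chosen by gene symbol, and all 10 had a row among the 25703 genes of the count table. Their levels were compared between 3 control libraries, from Arid1a fl/fl mice (no Cre allele is named), and 3 Arid1a cKO libraries, from Gli1-CreER;Arid1a fl/fl mice. The libraries were made from RNA of the proximal incisor at 6 weeks of age, on the C57BL/6 background. The stated tamoxifen treatment (1.5 mg per 10 g body weight on each of 3 days at 1 month of age) is the same for both genotypes. Gli1-CreER is a tamoxifen-activated recombinase made in cells that express Gli1, which include mesenchymal stem cells of the incisor, so Arid1a can recombine only in those cells and their progeny while the libraries hold RNA of the whole proximal tissue. The labels do not give sex, pooling or the animal behind each library, so p-values describe the scatter of these samples, part of which may be technical. Where 3 values follow each other, they stand in the order of replicates 1, 2 and 3 of the genotype.

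Type IV collagen is the sheet-forming scaffold of basement membranes, the thin matrix layers under epithelia and around blood vessels, Schwann cells, muscle and fat cells. Its 6 chains assemble into trimers: Col4a1 with Col4a2 in nearly every basement membrane, Col4a3 with Col4a4 and Col4a5 in a few such as that of the kidney filter, and Col4a5 with Col4a6 under some epithelia and around smooth muscle. Type VIII collagen forms open lattices made by endothelial, smooth muscle and other mesenchymal cells, and types XV and XVIII are proteoglycan-bearing collagens that link basement membranes to the matrix beside them. In the incisor, basement membranes lie between dental epithelium and mesenchyme and around the vessels and nerves of the pulp.

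The library totals were 27300932 to 37908478 estimated counts. Arid1a, which checks the labels, was 222, 249 and 223 CPM (counts per 1000000 of the library total as scaled by TMM) in the controls, against 136, 139 and 145 CPM in the Arid1a cKO libraries (log2 fold change -0.72, edgeR adjusted p = 0.00802). Arid1a cKO replicate 1 was the highest library of its group for several vascular, epithelial and Schwann cell markers. Its values are given for each of the 10 members, and not for every partner gene. All 10 members passed the filter on low counts.

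The type IV genes lie in 3 head-to-head pairs, in which the genes of a pair are transcribed away from each other from neighbouring start sites. The GENCODE M21 gene ends place Col4a1 (chromosome 8, 11198423 to 11312826, minus strand) and Col4a2 (11312805 to 11449287, plus strand) so close that their first exons share 22 bases. Col4a4 (chromosome 1, 82448423 to 82586849, minus strand) and Col4a3 (82586921 to 82722059, plus strand) are 71 bases apart, and Col4a6 (chromosome X, 141165403 to 141474076, minus strand) and Col4a5 (141475385 to 141689234, plus strand) are 1308 bases apart. The other members stand alone: Col8a1 (chromosome 16, 57624258 to 57754737, minus strand), Col8a2 (chromosome 4, 126286793 to 126314330, plus strand), Col15a1 (chromosome 4, 47208161 to 47313167, plus strand) and Col18a1 (chromosome 10, 77052178 to 77166548, minus strand). All are protein-coding, and coordinates are of mm10.

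The sequences just upstream of the start sites are shown for the type VIII genes, of which 1 rose and 1 did not pass the test, and for the X-linked pair that holds the member that fell. They are the bases within 250 bases before the RefSeq start site that lie outside the gene spans of both GENCODE M21 and RefSeq. They run 5′ to 3′ on the strand of the gene (RefSeq, GRCm38.p6, which is the assembly called mm10). Capitals mark matches on either strand to the GC box, spelled GGGCGG, a site known to bind factors of the Sp family. They also mark the CCAAT box, known to bind the factor NF-Y. Matches that overlap each other are counted separately.
Col8a1 (chr16:57754738-57754987, minus strand): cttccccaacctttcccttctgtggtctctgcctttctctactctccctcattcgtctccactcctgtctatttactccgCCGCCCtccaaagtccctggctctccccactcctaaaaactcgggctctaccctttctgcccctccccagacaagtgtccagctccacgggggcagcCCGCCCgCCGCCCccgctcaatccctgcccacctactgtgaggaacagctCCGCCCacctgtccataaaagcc
Col8a2 (chr4:126286544-126286792, plus strand): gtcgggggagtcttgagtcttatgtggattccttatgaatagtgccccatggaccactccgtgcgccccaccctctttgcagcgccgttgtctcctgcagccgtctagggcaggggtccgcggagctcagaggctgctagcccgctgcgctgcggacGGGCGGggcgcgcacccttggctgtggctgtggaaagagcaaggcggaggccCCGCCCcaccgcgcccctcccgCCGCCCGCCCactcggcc
Col4a5 (chrX:141475169-141475369, plus strand): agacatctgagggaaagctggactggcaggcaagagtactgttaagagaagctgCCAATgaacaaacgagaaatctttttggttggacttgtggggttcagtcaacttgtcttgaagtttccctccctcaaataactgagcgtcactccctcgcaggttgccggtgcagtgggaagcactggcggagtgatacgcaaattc
Col4a6 (chrX:141474096-141474326, minus strand): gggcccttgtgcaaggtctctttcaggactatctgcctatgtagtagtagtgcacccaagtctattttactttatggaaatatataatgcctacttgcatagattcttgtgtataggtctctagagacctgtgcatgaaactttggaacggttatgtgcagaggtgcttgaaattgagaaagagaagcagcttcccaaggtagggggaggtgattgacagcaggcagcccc
Col8a1 and Col8a2 each had 4 GC box matches in these windows and no CCAAT box. Neither window held the TATA box, searched as TATAAA, which occurs in 12.4% of the 32851 windows of 250 bases in the RefSeq table. Neither held an AP-1 site, searched on both strands as TGANTCA, which occurs in 6.7% of those windows. The GC box occurs in 32.7% and the CCAAT box in 33.8% of them. Col4a5 had 1 CCAAT box match, 196 bases before the RefSeq start site, and the printed Col4a6 stretch had no match to these motifs. Both printed stretches are shorter than the windows behind those shares, and the full 250 bases before Col4a5 and before Col4a6 each hold 1 GC box. The type VIII genes, of which Col8a1 alone passed the test, were thus alike in the number of matches to these 4 motifs. Col18a1, whose stretch is not printed, had 3 GC box matches and 1 CCAAT box match before its RefSeq start site at 77166530. The window before its other RefSeq start site lies within an annotated gene and held no match to these 4 motifs. RefSeq rows were found for 9 of the 10 members, all but Col4a3. For Col4a1, Col4a2, Col4a4 and Col15a1 the window lies wholly within an annotated gene and is not printed.

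A feature that the choice by symbol did not use is shared by most members. Sites that match the seed of the miR-29 family, microRNAs known for repressing collagen genes, were found in the 3′ UTRs of 8 of the 10 members, against 13.1% of 21020 mouse genes and 18.7% of the 10188 genes whose 3′ UTR is as long as those of the members (877 to 4708 bases). The search took the longest annotated 3′ UTR of each gene in GENCODE M21 and looked for TGGTGCT on the transcribed strand. The miR-29a sequence (RefSeq) has its seed, bases 2 to 8, in capitals, and miR-29b and miR-29c have the same seed.
miR-29a-3p: uAGCACCAucugaaaucgguua
The first site of each of the 8 genes follows, with the seed match in capitals (GRCm38, 5′ to 3′ on the strand of the gene).
Col4a1 (chr8:11199754-11199780, minus strand): accgtcacaacaTGGTGCTactccccc
Col4a2 (chr8:11448347-11448373, plus strand): ggaaggccacgtTGGTGCTtatccttc
Col4a3 (chr1:82720624-82720650, plus strand): aagtggacgtgaTGGTGCTgatactta
Col4a4 (chr1:82453028-82453054, minus strand): cagcaaattcagTGGTGCTctctccag
Col4a5 (chrX:141688241-141688267, plus strand): tgctcccaccaaTGGTGCTaatatcct
Col4a6 (chrX:141166507-141166533, minus strand): tttccatccatcTGGTGCTaacattcc
Col8a1 (chr16:57624698-57624724, minus strand): tatattctaccaTGGTGCTaatatcag
Col15a1 (chr4:47312488-47312514, plus strand): caatccacatatTGGTGCTagattctg
Col4a3 had 4 sites, Col4a5 had 3, Col4a2 and Col4a4 had 2 each, and Col4a1, Col4a6, Col8a1 and Col15a1 had 1 each. No site was found in Col8a2 or Col18a1. A match describes the sequence and does not show that a site is used, and microRNAs were not analysed here. The genes with sites included both the member that rose and the member that fell.

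Per kilobase of exon, the type IV chains of the common trimer were the most abundant members. In control libraries the mean level was 81.8 CPM per kb for Col4a1 and 61.5 for Col4a2, followed by 34.0 for Col8a2, 20.9 for Col18a1, 19.3 for Col4a5, 13.3 for Col8a1, 7.99 for Col4a6 and 2.87 for Col15a1. Col4a4 (0.193 CPM per kb) and Col4a3 (0.0938) were near the bottom of the range. Neighbours in this order did not overlap between the control libraries, apart from Col18a1 (19.6 to 21.6 CPM per kb) and Col4a5 (16.8 to 20.6). In Arid1a cKO the place of 1 gene in this order differed: Col8a1 (20.9 CPM per kb) stood above Col18a1 (19.4) and Col4a5 (12.7). The values of Col8a1 (19.7 to 22.1) and Col18a1 (17.7 to 21.8) overlapped there, and those of Col4a5 (11.4 to 14.7) lay below both. Lengths are the bases covered by any annotated exon, so a gene with long alternative exons reads low on this scale.

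**Figure D1:**
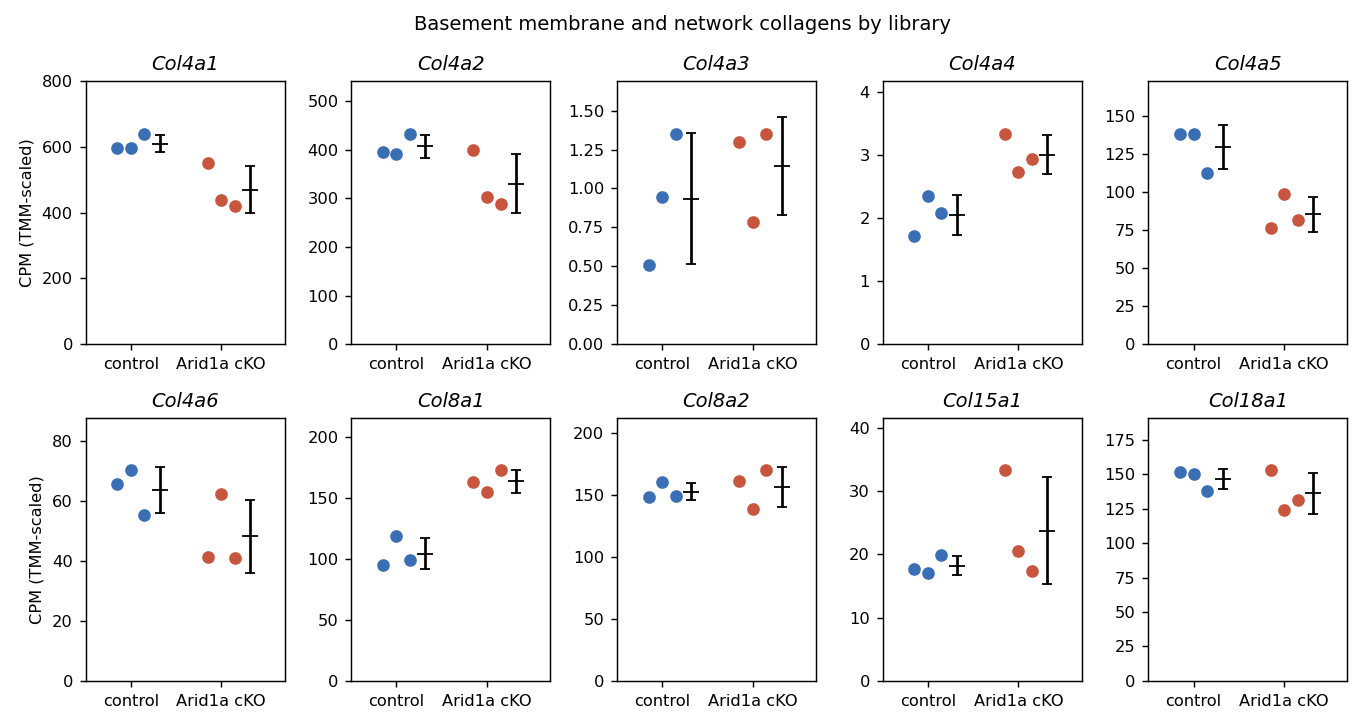
Level of each of the 10 collagens in CPM on a linear axis from 0, 1 point per library (control blue, Arid1a cKO red), with the mean and SD of 3 libraries in black. Col8a1 and Col4a4 are higher and Col4a1 and Col4a5 lower in all 3 Arid1a cKO libraries than in every control library, and Col15a1 has a single high library in Arid1a cKO.

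Between the genotypes, 1 member rose, 1 fell and 8 did not pass the test. Col8a1 rose 1.57-fold and Col4a5 fell 1.52-fold in Arid1a cKO. The test was edgeR's quasi-likelihood F test, two-sided, with Benjamini-Hochberg adjustment over the 19613 genes tested and a threshold of 0.05. Of all genes tested 3.96% passed it, 1.50% higher and 2.46% lower. With 10 members, that share amounts to less than 1 gene, and the members were chosen with earlier results known, so the count describes them only. The median log2 fold change of the members was -0.04, against 0.004 over all genes tested.

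**Figure D2:**
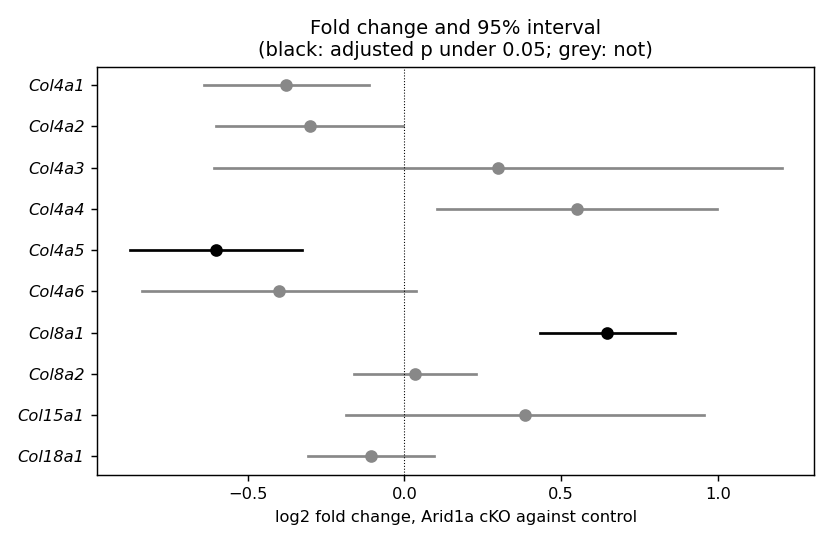
Log2 fold change of each member, Arid1a cKO against control (points), with its 95% interval from the edgeR quasi-likelihood fit (lines), n = 3 libraries per genotype. Only Col4a5 and Col8a1, in black, have an adjusted p under 0.05. The intervals are not adjusted over genes, which is why that of Col4a1 or Col4a4 can exclude 0 without passing.

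Col8a1, a short-chain network collagen known from vessel walls and from the endothelial basement membrane of the cornea, was at 94.9, 119 and 99.6 CPM in the controls. In the Arid1a cKO libraries it was at 164, 155 and 173 CPM. The lowest Arid1a cKO library stood well above the highest control library. The means were 104.5 ± 12.8 and 163.7 ± 9.05 CPM (SD, n = 3), a log2 fold change of 0.65 (SE 0.0933, edgeR adjusted p = 0.0162). Leaving out control replicate 1 (adjusted p = 0.057), control replicate 3 (0.0666) or Arid1a cKO replicate 3 (0.0604) ended the call, with log2 fold changes of 0.59 to 0.62.

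Col8a2, whose chain joins Col8a1 in type VIII trimers, did not follow it. It was at 148, 160.4 and 149 CPM in the controls, against 161, 139 and 169.9 CPM in the Arid1a cKO libraries. The groups overlapped, with both the lowest and the highest value in Arid1a cKO. The log2 fold change was 0.04, with a 95% interval of -0.16 to 0.23 (edgeR adjusted p = 0.846), which lies below the interval of Col8a1 (0.43 to 0.86). The ratio of Col8a1 to Col8a2 counts was 0.640, 0.742 and 0.667 in the controls, against 1.02, 1.12 and 1.02 in the Arid1a cKO libraries. The larger share of type VIII counts thus came from Col8a2 in every control library and from Col8a1 in every Arid1a cKO library. Counts also grow with exon length, which is 7833 bases for Col8a1 and 4489 for Col8a2. Per kilobase of exon, Col8a2 stayed above Col8a1 in control (means of 34.0 and 13.3 CPM per kb) and in Arid1a cKO (34.9 and 20.9). The count ratio was computed after the values of both genes were known and has no test.

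Smooth muscle and pericyte markers are set beside Col8a1 because those cells are among its known sources. Of 10 such markers, 1 rose, 2 fell and 9 did not overlap between the groups. Of all genes tested, 1.50% rose, 2.46% fell and 29.1% did not overlap. Myh11, smooth muscle myosin, rose (log2 fold change 0.80, edgeR adjusted p = 0.0463), and the receptors Pdgfrb (-0.44, 0.02) and Notch3 (-0.43, 0.0139) fell. Acta2 (0.72, 0.244), Tagln (0.83, 0.269) and Cnn1 (1.13, 0.218) did not pass. Neither did Abcc9 (-0.60, 0.0548), Rgs5 (-0.405, 0.172), Kcnj8 (-0.30, 0.203) and Cspg4 (-0.20, 0.14). All 10 markers were named after their values were seen. The median of the 10 was -0.25. The summed level of the 10 markers was 1236 to 1408 CPM in control and 1117 to 1354 CPM in Arid1a cKO, and none was at 0. Their part in the Col8a1 result was not tested.

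Col4a5, the chain shared by the kidney-type and the smooth muscle-type trimers, was lower in every Arid1a cKO library. It was at 138, 138 and 113 CPM in the controls, against 76.6, 98.6 and 81.5 CPM in the Arid1a cKO libraries. The means were 129.7 ± 14.7 and 85.6 ± 11.5 CPM (SD, n = 3), a log2 fold change of -0.60 (SE 0.118, edgeR adjusted p = 0.0391). The call was lost without 5 of the 6 libraries in turn, all but Arid1a cKO replicate 2, with adjusted p of 0.051 to 0.127 and log2 fold changes of -0.69 to -0.53. With the level of Xist as a covariate the log2 fold change was -0.60 (adjusted p = 0.0149), in a fit that called 748 of all genes lower in place of 482. The part of sex, which is not labelled, was not tested.

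Its neighbour Col4a6 was at 65.7, 70.2 and 55.2 CPM in the controls, against 41.4, 62.3 and 41.0 CPM in the Arid1a cKO libraries. The libraries of Arid1a cKO split, with replicate 2 inside the control range and the others below it. The log2 fold change was -0.40 (95% interval -0.84 to 0.04, edgeR adjusted p = 0.263), and without Arid1a cKO replicate 2 it was -0.63 (adjusted p = 0.0428). Both X-linked chains were lower in their mean, and only Col4a5 passed the test with all libraries.

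Col4a1 and Col4a2, the chains of the common trimer, were both lower in their means and neither passed. Col4a1 was at 596, 596 and 641 CPM in the controls, against 552, 440.0 and 419.8 CPM in the Arid1a cKO libraries, so the groups did not overlap. Its log2 fold change was -0.38 (SE 0.113, 95% interval -0.64 to -0.11, edgeR adjusted p = 0.107). Col4a2 was at 395, 392 and 433 CPM in the controls, against 399.7, 302 and 288 CPM in the Arid1a cKO libraries. Here Arid1a cKO replicate 1 lay inside the control range, and the log2 fold change was -0.30 (SE 0.128, 95% interval -0.60 to -0.01, edgeR adjusted p = 0.222).

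Arid1a cKO replicate 1 was the library of its group nearest the controls for both chains. Without that library Col4a1 had a log2 fold change of -0.51 (edgeR adjusted p = 0.0255) and Col4a2 of -0.465 (0.0316). Without any other single library neither passed, with edgeR adjusted p of 0.21 to 0.266 for Col4a1 and 0.338 to 0.463 for Col4a2. Arid1a cKO replicate 1 had the highest summed level of 12 endothelial markers, 918 CPM, against 615 and 685 CPM in Arid1a cKO replicates 2 and 3 and 620 to 728 CPM in control. None of the 12 markers passed the test, 6 had a positive and 6 a negative log2 fold change, and none was at 0. With the mean endothelial marker level as a covariate, Col4a1 (log2 fold change -0.41, adjusted p = 0.023) and Col4a2 (-0.35, 0.0426) both passed. With all libraries, Col4a1 also passed in DESeq2 (adjusted p = 0.0147) and with the Xist level as a covariate (0.0409), and Col4a2 passed in neither (0.13 and 0.0772). The endothelial covariate, DESeq2 and Xist covariate fits called 850, 1104 and 748 of all genes lower, against 482 in the main fit. In RNA from whole tissue, fewer cells of a type and less RNA per cell cannot be told apart.

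Of the chains of the kidney-type trimer, Col4a3 and Col4a4 were scarcely expressed, unlike Col4a5. Col4a3 had 16 to 51 counts per library, or 0.510, 0.942 and 1.35 CPM in the controls, against 1.30, 0.785 and 1.35 CPM in the Arid1a cKO libraries. The groups overlapped almost fully (log2 fold change 0.30, 95% interval -0.61 to 1.20, edgeR adjusted p = 0.706). Col4a3 overlaps the exons of the antisense gene C430014B12Rik, and no source used here states whether reads were counted by strand, so its low counts are uncertain.

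Col4a4 was at 1.72, 2.36 and 2.08 CPM in the controls, against 3.34, 2.73 and 2.94 CPM in the Arid1a cKO libraries. All 3 Arid1a cKO libraries lay above all controls, but the difference did not pass (log2 fold change 0.55, 95% interval 0.10 to 1.00, edgeR adjusted p = 0.15). It was the 1 type IV chain with separate groups and a higher level in Arid1a cKO. In all, 4 of the 10 members had groups that did not overlap (Col4a1, Col4a4, Col4a5 and Col8a1), near the 29.1% of all genes tested.

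The count ratio of the common pair varied little. Col4a2 counts divided by Col4a1 counts gave 0.663, 0.658 and 0.676 in the controls, against 0.724, 0.686 and 0.686 in the Arid1a cKO libraries. The 6 values lay within a narrow band while the level of Col4a1 ranged from 419.8 to 641 CPM. The log2 ratio was 0.07 higher in Arid1a cKO, with no overlap (p = 0.1 in an exact two-sided permutation test, which is the lowest value possible with 3 libraries a group, and 0.3 adjusted over the 3 pairs). For Col4a6 against Col4a5 the ratio was 0.475, 0.509 and 0.490 in the controls, against 0.541, 0.632 and 0.503 in the Arid1a cKO libraries, with overlap (difference of log2 ratios 0.18, exact permutation p = 0.2, adjusted 0.3). For Col4a4 against Col4a3 the few counts gave ratios of 1.51 to 3.11 in control and 2.12 to 3.32 in Arid1a cKO (exact permutation p = 0.6, adjusted 0.6).

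**Figure D3:**
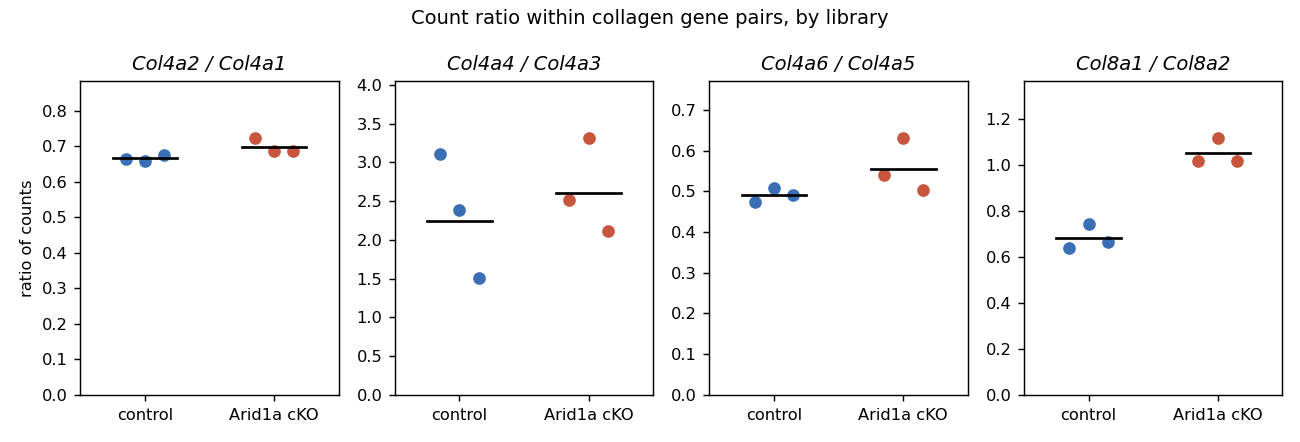
Ratio of estimated counts within the 3 head-to-head type IV pairs and the type VIII chains, 1 point per library, on a linear axis from 0, with geometric means as black lines. Counts are not divided by exon length. The Col4a2 to Col4a1 ratio stays between 0.658 and 0.724 in all libraries, and the Col8a1 to Col8a2 ratio is 0.640 to 0.742 in control and 1.02 to 1.12 in Arid1a cKO.

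Summed per kilobase over the 6 type IV genes, the level was 169, 169 and 175 CPM per kb in the controls, against 151, 127 and 117 CPM per kb in the Arid1a cKO libraries. Each Arid1a cKO library was below each control library. Col4a1 and Col4a2 made up 82.4% to 86.3% of that sum in control and 82.1% to 88.7% in Arid1a cKO, so the share of the common pair overlapped between the genotypes. Col4a5 and Col4a6 together held 13.5% to 17.4% in control and 11.0% to 17.6% in Arid1a cKO, also with overlap. The scarce Col4a3 and Col4a4 held 0.13%, 0.19% and 0.19% in the controls, against 0.29%, 0.26% and 0.35% in the Arid1a cKO libraries, a share that did not overlap and rests on few counts. Arid1a cKO replicate 1 had both the highest share of the common pair and the lowest share of the X-linked pair.

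Col15a1, a proteoglycan-bearing collagen of vessel, nerve and muscle basement membranes, was at 17.8, 17.0 and 19.9 CPM in the controls, against 33.3, 20.6 and 17.4 CPM in the Arid1a cKO libraries. Its higher mean came from Arid1a cKO replicate 1, while replicate 3 lay inside the control range. The log2 fold change was 0.38 (95% interval -0.19 to 0.96, edgeR adjusted p = 0.395), and without that library it was 0.06 (adjusted p = 0.834). Its exons overlap an antisense gene, Gm12426.

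Col18a1, which carries the endostatin fragment at its end, was at 152, 150.2 and 138 CPM in the controls, against 153, 124 and 132 CPM in the Arid1a cKO libraries. The groups overlapped, and the log2 fold change was -0.11 (95% interval -0.31 to 0.09, edgeR adjusted p = 0.514). The interval leaves out a change of the size seen for Col8a1 or Col4a5 in either direction.

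Among the other components of basement membranes, perlecan and a pair of laminin chains were lower in Arid1a cKO. Of 28 tested structural partners out of 29 listed (laminins, nidogens, perlecan, agrin and others), 3 fell, 0 rose and 25 did not pass, with a median log2 fold change of -0.08 (over all genes tested, 2.46% fell, 1.50% rose and the median was 0.004). Hspg2, which encodes perlecan, the heparan sulfate proteoglycan that binds type IV networks, was at 872, 804 and 931 CPM in the controls, against 530.0, 582 and 614 CPM in the Arid1a cKO libraries (1.51-fold lower, edgeR adjusted p = 0.0199). Lama4, the laminin chain of vessel basement membranes, was at 170.1, 174 and 176 CPM in the controls, against 127, 119 and 117 CPM in the Arid1a cKO libraries (1.43-fold lower, adjusted p = 0.00948). Neither gene's groups came near each other, and Lama4 held its call without each library in turn. Hspg2 missed the threshold when control replicate 1 or 3 or Arid1a cKO replicate 2 or 3 was left out (adjusted p of up to 0.0677).

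Lama2, the laminin chain of muscle and Schwann cell basement membranes, fell 1.43-fold (edgeR adjusted p = 0.0397), with means of 126.8 ± 14.0 and 88.8 ± 9.39 CPM (SD, n = 3), a call that was lost without any 1 of the 6 libraries (adjusted p of 0.058 to 0.113). With all libraries it was also lost under upper quartile scaling (0.0531) and in limma on the authors' normalized table (0.0511 to 0.0544). The summed Schwann cell markers were 42.3 to 108.4 CPM in control and 119 to 190 CPM in Arid1a cKO, and none was at 0. Of the 8 markers, 7 had a positive log2 fold change, 0 rose and 1 fell. Over all genes tested, 1.50% rose and 2.46% fell. The Schwann cell marker that fell was Cdh19 (log2 fold change -1.25, edgeR adjusted p = 0.0127), against the direction of the sum. Cdh19 was picked for mention with its result already known. All 3 tested skeletal muscle markers were negative and none passed, and the sum over that list was 2.1 to 23.9 CPM in control and 1.3 to 2.65 CPM in Arid1a cKO. Myh4 and Ckm were too low to be tested, and Myog had no row in the count table. Their part in the Lama2 result was not tested. Agrn, the proteoglycan agrin (log2 fold change -0.38, edgeR adjusted p = 0.0583), and the laminin chain Lamc3 (-0.41, 0.0639) did not pass in the main fit. Both passed in DESeq2 (adjusted p = 0.000858 and 0.0102) and in edgeR with the mean endothelial marker level as a covariate (0.0472 and 0.0157). Lamc3 also passed in edgeR with the Xist level as a covariate (0.0281). These 3 fits called 1104, 850 and 748 of all genes lower, against 482 in the main fit. The laminin chains Lamb1 (-0.17, 0.296) and Lamc1 (-0.16, 0.237) and the linker proteins Nid1 (-0.25, 0.339) and Nid2 (-0.17, 0.496) did not pass in the main fit. Together with type IV collagen these 4 make up most basement membranes, and they were named after their values were seen.

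The machinery that makes and crosslinks type IV collagen had no gene past the threshold in edgeR's test. Of 19 tested genes (prolyl and lysyl hydroxylases, glycosyltransferases, the chaperone Serpinh1, export factors and crosslinking enzymes), 0 rose and 0 fell. Over all genes tested, 1.50% rose and 2.46% fell, so a list of 19 genes can hold none by that share alone. The median log2 fold change of the 19 was -0.11. An unadjusted edgeR p under 0.05 was found for 2 of the 19, against 4307 of all 19613 genes tested. DESeq2 called 0 higher and 1 lower, edgeR with the endothelial score as a covariate 0 and 2, and with the Xist level 0 and 1. In that order, the fits called 831, 516 and 433 of all genes higher and 1104, 850 and 748 lower. Pxdn, the peroxidase that forms sulfilimine crosslinks in type IV collagen, had the smallest p (log2 fold change -0.32, edgeR adjusted p = 0.0868) and passed in these 3 fits (adjusted p = 0.0116, 0.0425 and 0.0389), followed by the export factor Mia3 (-0.14, 0.184).

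Of 12 tested receptors, 1 fell and 0 rose (over all genes tested, 2.46% fell and 1.50% rose). Itga1, the integrin chain that binds type IV collagen, fell 1.31-fold (edgeR adjusted p = 0.0466), with means of 47.5 ± 4.1 and 36.2 ± 2.43 CPM (SD, n = 3), a call that sat at the threshold and was lost under 15 of the 22 alternatives, among them limma-voom (adjusted p = 0.0534). Itgb4, the hemidesmosome integrin of epithelia (log2 fold change 0.70, adjusted p = 0.0767), and the collagen receptor kinase Ddr2 (-0.47, 0.0783) did not pass. Itgb4 passed in DESeq2 (adjusted p = 0.000671) and with the dental epithelium score (log2 fold change 0.62, edgeR adjusted p = 0.0383) or the endothelial score (0.66, 0.0451) as a covariate, and without Arid1a cKO replicate 2 (0.86, 0.0289). Ddr2 passed in DESeq2 (adjusted p = 0.0032) and with the endothelial score as a covariate (log2 fold change -0.45, edgeR adjusted p = 0.0203). Of the 10 dental epithelium markers, 8 had a positive log2 fold change, with a median of 0.31 over the 10. In the test, 1 of them rose and 0 fell, where 1.50% of all genes tested rose and 2.46% fell. The sum of the 10 markers was 1250.0 to 4677 CPM in control and 1482 to 3173 CPM in Arid1a cKO, with none at 0. The highest sum came from enamel genes such as Amelx (1910 CPM) in control replicate 3. DESeq2 called 2 of the receptors higher and 3 lower, in a fit that called 831 of all genes higher and 1104 lower.

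Of 9 tested proteases and inhibitors, 2 fell and 1 rose. The metalloprotease inhibitor Timp3, which is held in the matrix, fell 1.39-fold (edgeR adjusted p = 0.0321), with means of 572 ± 46 and 411.7 ± 23.9 CPM (SD, n = 3). Bmp1, a protease that processes procollagens, fell 1.44-fold (adjusted p = 0.035), with means of 280.4 ± 35 and 194.9 ± 12.7 CPM (SD, n = 3). Timp1 rose 1.65-fold (adjusted p = 0.0374) at low means of 5.89 ± 0.0897 and 9.69 ± 1.61 CPM (SD, n = 3). Each of these calls was lost without 5 of the 6 libraries in turn (adjusted p of up to 0.118). The type IV collagenases Mmp2 (log2 fold change -0.25, adjusted p = 0.178) and Mmp9 (0.45, 0.682; named after its value was seen) did not pass, nor did the inhibitor Timp2 (-0.22, 0.26). Over the 4 lists together, 6 of 68 tested genes fell and 1 rose, where 2.46% of all genes tested fell and 1.50% rose. The genes of the lists were chosen with earlier results known, so these counts describe them only.

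**Figure D4:**
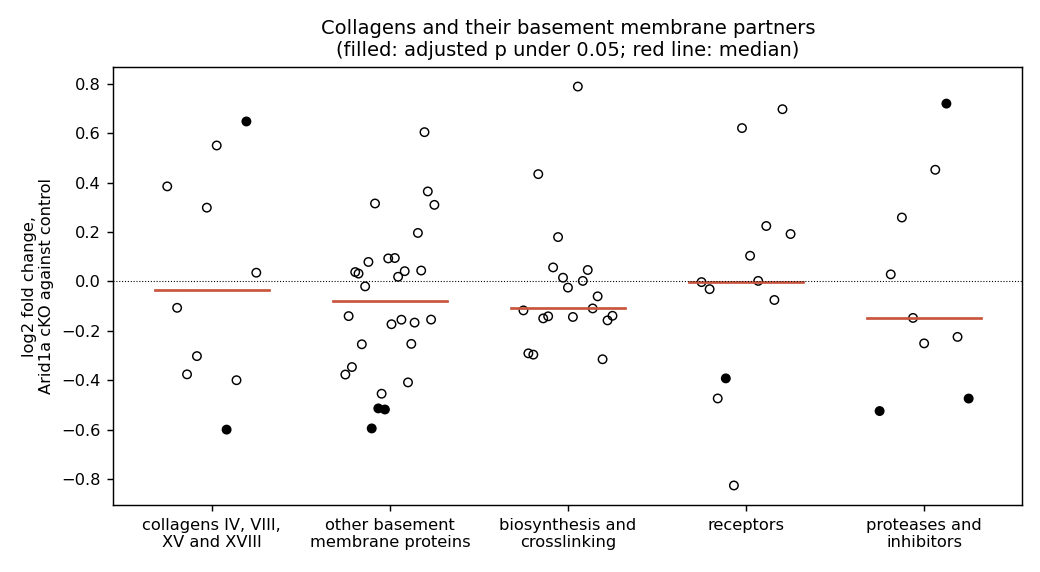
Log2 fold change, Arid1a cKO against control, of the 10 collagens and of the tested genes of 4 partner lists, 1 point per gene, filled where the adjusted p is under 0.05, with the list's median in red. Filled points lie on both sides of 0 among the collagens and the proteases with their inhibitors, and below 0 among the other basement membrane proteins and the receptors.

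The libraries were also searched for the genes whose log2 CPM followed Col4a1 and Col8a1 most closely over the 6 libraries. The search covered 10383 tested genes with a mean of at least 10 CPM. The members were left out of it, so Col4a2 could not be listed, and so were clone, predicted and pseudogene names. For Col4a1 the closest genes searched were Ttyh3 (Pearson r 0.9983), Cdh5 (0.9896), Gtf2b (0.9872), Rab11b (0.9868) and Naglu (0.9802). Cdh5, the cadherin of endothelial junctions, was at 111, 112 and 117 CPM in the controls, against 109, 84.3 and 81.4 CPM in the Arid1a cKO libraries, the same split of Arid1a cKO replicate 1 from the others as Col4a1. Cdh5 does not stand for the 12 endothelial markers, of which 6 had a positive and 6 a negative log2 fold change. Pecam1, named after its values were seen, was at 64.8, 73.6 and 76.7 CPM in the controls, against 103, 61.4 and 67.5 CPM in the Arid1a cKO libraries. For Col8a1 the closest genes were Frmd6 (0.9936), Synpo2 (0.9932), Shcbp1 (0.9912), Gas2l3 (0.9905) and Usp10 (0.9899). Synpo2, an actin-binding protein of muscle cells, was at 4.43, 8.01 and 5.7 CPM in the controls, against 16.8, 16.7 and 18.1 CPM in the Arid1a cKO libraries. These genes were picked for following Col8a1, which differs between the genotypes, so no test is given for them. All genes share the libraries and the genotype difference, so these r values describe likeness over 6 points only.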

How the data were processed

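The data were 3 control and 3 Arid1a cKO RNA-seq libraries of the proximal incisor. Reads were handled with STAR 2.6.1d and Partek on mm10, per the submitters' processing notes. For the annotation release, library kit and strandedness: not given in the sources used here. The authors deposited estimated counts per gene (not all whole numbers) for 25703 genes, and a normalized signal table of 21456 genes, in which each value equals the count plus 1 divided by 1 factor per library. Estimated counts were rounded. Genes were filtered with filterByExpr of edgeR 4.0.16 (minimum count 10), which left 19613, scaled by TMM and tested with the quasi-likelihood F test without covariates, in R 4.3.3. The SE of a log2 fold change is its size over the root of F, and intervals use the t distribution with the fit's degrees of freedom. Biological variation was 15.8% (common coefficient). The fit was tested on simulated data. Replicate numbers follow accession order. The members and lists were chosen with earlier results of these data known. Named genes are Arid1a, the members, and each partner list's genes past the threshold with the next 2 by p. They also include the 5 searched genes most like Col4a1 and Col8a1, with the members left out of that search. Others are said to be named after their values were seen. Alternatives used DESeq2 1.42.0 and limma 3.58.1, other scalings and filters, covariates, and each library left out. Symbols matched GENCODE M21 for 97.5% of genes, with the same start in 99.4% of these.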

Additional observations from a re-analysis of the deposited data

How the results depend on the processing

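Leaving out each library in turn gave 0 to 1 collagens higher and 0 to 2 lower, 0 to 2 partner genes higher and 1 to 4 lower, and 55 to 193 of all genes higher and 98 to 339 lower; fewer samples were then tested. DESeq2 called 2 collagens lower, 5 partner genes higher and 11 lower, and 831 of all genes higher and 1104 lower. With the endothelial score as a covariate 3 collagens were lower, 2 partner genes higher and 12 lower, and 516 of all genes higher and 850 lower. With the Xist level as a covariate 2 collagens were lower, 2 partner genes higher and 748 of all genes lower. The dental epithelium score gave 3 partner genes higher, and limma-voom 0. The cause of these shifts was not tested. The log2 fold change of Col8a2 (0.04) ranged from -0.0152, without Arid1a cKO replicate 3, to 0.115 over the libraries left out, and the log2 ratio of Col4a4 to Col4a3 turned from 0.22 to -0.07 without control replicate 3. Over the libraries left out, the difference in log2 ratio ranged from 0.043 to 0.083 for Col4a2 to Col4a1, from -0.068 to 0.452 for Col4a4 to Col4a3 and from 0.089 to 0.253 for Col4a6 to Col4a5. The other 9 collagens kept their sign in each alternative that gave a value, and Col4a3 gave none with at least 1 CPM in all libraries. No paired analysis was possible because the labels give no number that pairs the libraries of the groups. Among the collagens, low counts limit Col4a3 and Col4a4 most.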
